A study of Mus musculus with 7 samples.

Results

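The 38 Hox genes described here lie in 4 clusters of the mouse genome, and they were examined through peaks of open chromatin in the embryonic gut. Cluster A (10 genes, chromosome 6), cluster B (10, chromosome 11), cluster C (9, chromosome 15) and cluster D (9, chromosome 2) were placed by the GRCm38 RefSeq annotation. ATAC-seq peaks of 7 libraries were merged into 326695 regions, and a region belonged to a Hox gene where it lay over a cluster or within 100 kb of it and the nearest protein-coding gene body was 1 of the 38. This gave 181 regions of 270 in these windows, and 89 lay nearest to another gene. All 38 genes were counted, and Hoxa11 had no region. Positions given for a gene are on the chromosome of its cluster, as deposited.

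There was 1 library per group. Groups are named by the ages in the library titles, E13 and E16. For every group the protocols give a later point of the same embryonic day. The groups were E16 colon, E16 small intestine (proximal, per the labels' protocols), E16 stomach with a Sox2 knockout (KO), E16 hindstomach, E16 forestomach, E13 intestine and E13 stomach. Wild-type embryos carried ShhCre and the R26YFP reporter on 1 allele, in which Cre made under Shh marks gut epithelium with a fluorescent protein. E13 cells were sorted after trypsin, from 3 to 4 pooled embryos, forestomach epithelium was freed with dispase, and the other E16 epithelia with EDTA. For the KO library, the sources used here do not name the Sox2 alleles, the Cre driver, the part of the stomach or the isolation. With 1 library per group, no difference between groups could be tested. Each range after a share is a 95% Wilson interval, which covers only the error of counting. It takes neighbouring genes or regions of a cluster as independent, so its place beside the share of all genes or regions is a description and not a test.

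Hox genes encode homeodomain transcription factors that give cells their position along the head-to-tail axis. Within a cluster they stand in the order in which they act along the body. Genes with low paralog numbers act from the hindbrain backwards, and those with high numbers act in the trunk and tail. Genes that share a paralog number in different clusters are related by duplication. All genes of a cluster are read in the same direction, and silent Hox genes are held in Polycomb-repressed chromatin. In the gut, Hox genes are best known for patterning along its length, with group 13 genes in the hindgut, and much of that activity is in the mesenchyme around the epithelium.

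The peak lists were unequal, which bears on each count below. They held 81179 (E13 intestine) to 135743 (E16 colon) peaks on the autosomes and X, with median widths from 108 to 178 bp. The narrowest peak was 62 bp in E13 intestine, 71 in KO, 77 in E13 stomach and 86 in colon. It was 87 bp in small intestine, 89 in hindstomach and 108 in forestomach. The files give no read depth, peak height or score, so a missing peak means only that none was listed. Sox2, the gene knocked out in the KO library, had a peak within 1 kb of a start in all 7 libraries, so this measure does not check the knockout. All 6 epithelial marker starts were open in each library except colon, which lacked Krt8. Cdx2, the intestinal master regulator, was open in each library except forestomach, and the glandular marker Anxa10 was open in KO, hindstomach and forestomach.

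RefSeq (GRCm38.p6) lists a start for 22 of the 38 genes. The 250 bases before each were searched for peaks, and 6 Hox promoters held one. They are shown because Hoxd1 was the Hox start open in every library and the other 5 differed between libraries. They read 5′ to 3′ towards the start, with bases under a peak of at least 1 library in capitals. Hoxd1 (chr2:74762730-74762979, plus strand) had a peak there in all 7 libraries, Hoxd10 (chr2:74691641-74691890, plus) in KO and E13 intestine, and the downstream start of Hoxd11 (chr2:74682073-74682322, plus) in hindstomach, E13 intestine and E13 stomach. Hoxd13 (chr2:74667975-74668224, plus) and Hoxa5 (chr6:52204588-52204837, minus) had one in E13 intestine, and Hoxa13 (chr6:52260881-52261130, minus) in KO. The first base of the deposited coordinates may be 0 or 1, so the edges of the capitals may be off by 1 base.
Hoxd1: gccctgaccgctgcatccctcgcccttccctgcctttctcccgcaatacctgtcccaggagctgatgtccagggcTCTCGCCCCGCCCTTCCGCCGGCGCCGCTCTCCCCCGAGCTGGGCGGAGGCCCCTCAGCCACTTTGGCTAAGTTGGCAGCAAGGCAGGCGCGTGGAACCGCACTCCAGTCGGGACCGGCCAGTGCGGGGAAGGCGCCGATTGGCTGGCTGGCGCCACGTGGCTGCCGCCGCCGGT
Hoxd10: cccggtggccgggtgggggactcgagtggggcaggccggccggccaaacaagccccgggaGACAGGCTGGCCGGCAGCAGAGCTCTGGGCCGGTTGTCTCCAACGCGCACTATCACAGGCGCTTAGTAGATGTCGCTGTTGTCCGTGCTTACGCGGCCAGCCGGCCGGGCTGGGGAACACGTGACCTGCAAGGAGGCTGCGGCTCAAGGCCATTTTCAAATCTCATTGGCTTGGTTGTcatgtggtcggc
Hoxd11: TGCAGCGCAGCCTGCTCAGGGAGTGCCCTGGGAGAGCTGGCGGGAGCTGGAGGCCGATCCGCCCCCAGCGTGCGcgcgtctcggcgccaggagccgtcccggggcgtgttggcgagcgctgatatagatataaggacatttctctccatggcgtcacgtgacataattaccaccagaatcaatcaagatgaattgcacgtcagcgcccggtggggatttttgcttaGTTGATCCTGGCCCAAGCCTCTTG
Hoxd13: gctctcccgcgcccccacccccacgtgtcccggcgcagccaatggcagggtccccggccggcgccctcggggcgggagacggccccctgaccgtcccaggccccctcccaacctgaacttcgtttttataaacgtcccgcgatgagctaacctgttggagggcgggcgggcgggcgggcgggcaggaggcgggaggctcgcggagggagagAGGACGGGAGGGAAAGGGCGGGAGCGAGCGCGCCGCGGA
Hoxa5: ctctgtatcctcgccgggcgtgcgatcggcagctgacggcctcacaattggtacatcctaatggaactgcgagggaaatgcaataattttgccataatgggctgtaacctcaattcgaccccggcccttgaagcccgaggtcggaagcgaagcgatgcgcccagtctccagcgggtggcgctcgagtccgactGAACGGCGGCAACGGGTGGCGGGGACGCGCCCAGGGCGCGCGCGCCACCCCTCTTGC
Hoxa13: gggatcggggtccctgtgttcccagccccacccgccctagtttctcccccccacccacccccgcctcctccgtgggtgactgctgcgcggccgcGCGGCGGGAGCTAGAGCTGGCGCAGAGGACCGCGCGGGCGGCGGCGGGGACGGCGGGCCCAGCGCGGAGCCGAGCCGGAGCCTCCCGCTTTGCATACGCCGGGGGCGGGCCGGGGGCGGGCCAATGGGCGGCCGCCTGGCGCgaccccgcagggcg

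These promoters were rich in CG dinucleotides. Hoxa13 had 35 in 250 bases, Hoxd13 31, Hoxa5 28, Hoxd1 24 and both Hoxd10 and Hoxd11 20. The median over the 24 listed Hox promoters was 12.5, against 10 over 21045 promoters of all protein-coding genes. Exact letter matches on both strands were counted for 7 motifs. The CDX motifs TTTATGG (in Hoxd4) and TTTATTG (in Hoxb8) were each in 1 of 24 Hox promoters, or 4.17%, against 2.06% and 3.51% of all promoters. The HOX13 motif TCGTAAA was also in Hoxb8 alone, against 0.48% of all promoters. The HOX-PBX motif TGATTNAT was in 2 (8.33%, against 2.54%), Hoxa2 and the downstream Hoxd11 start, and the MEIS motif TGACAG in 2 (8.33%, against 15.0%), Hoxa2 and Hoxa3. The GATA motif AGATAAG and the FOXA motif TGTTTAC had no match in the Hox promoters, against 2.43% and 2.64% of all promoters. In the Hoxd11 promoter the HOX-PBX match lies in the lower-case stretch between its peaks. Matches describe letters in these windows and say nothing of factors.

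Open Hox starts were fewest in the E16 forestomach and E16 intestinal libraries and most frequent in KO and E13 intestine. A start was called open where the library had a peak within 1 kb of it on either side; a peak has no strand. Open Hox starts numbered 6 of 38 in E16 colon (15.8%, 7.44 to 30.4) and 6 in E16 small intestine (15.8%, 7.44 to 30.4). KO stomach had 20 (52.6%, 37.3 to 67.5), hindstomach 12 (31.6%, 19.1 to 47.5) and forestomach 5 (13.2%, 5.75 to 27.3). E13 intestine had 18 (47.4%, 32.5 to 62.7) and E13 stomach 15 (39.5%, 25.6 to 55.3).

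Over all 17274 protein-coding genes with a listed start, the open share was 53.9% in colon, 56.5% in small intestine, 69.4% in KO, 62.7% in hindstomach, 58.5% in forestomach, 64.0% in E13 intestine and 66.3% in E13 stomach. The Hox share was the lower in each of the 7 libraries, and its Wilson interval ended below the share of all genes in each, the closest being KO, where it ended at 67.5%, and E13 intestine, where it ended at 62.7%. In KO and E13 intestine this did not hold under other choices. Over the 22 Hox genes with a listed start only, 13 were open in KO (59.1%, 38.7 to 76.7) and 12 in E13 intestine (54.5%, 34.7 to 73.1), and both intervals then included the share of all genes. With a start window of 2 kb, 27 of 38 Hox starts were open in KO (71.1%, 55.2 to 83.0, against 72.1% of all genes) and 23 in E13 intestine (60.5%, 44.7 to 74.4, against 66.8%). In the other 5 libraries the interval ended below the share of all genes with either choice. When each list was cut to the widest peaks at equal length, KO had 17 open Hox starts and E13 intestine 18. KO then no longer had the most. That length was the length of the E13 intestine list, which therefore lost no peaks, so this setting cannot rank KO against E13 intestine. KO also had 17 of 38 open with a window of 500 bp. Depth cannot be read from these files, so its part in these shares was not tested.

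**Figure D1:**
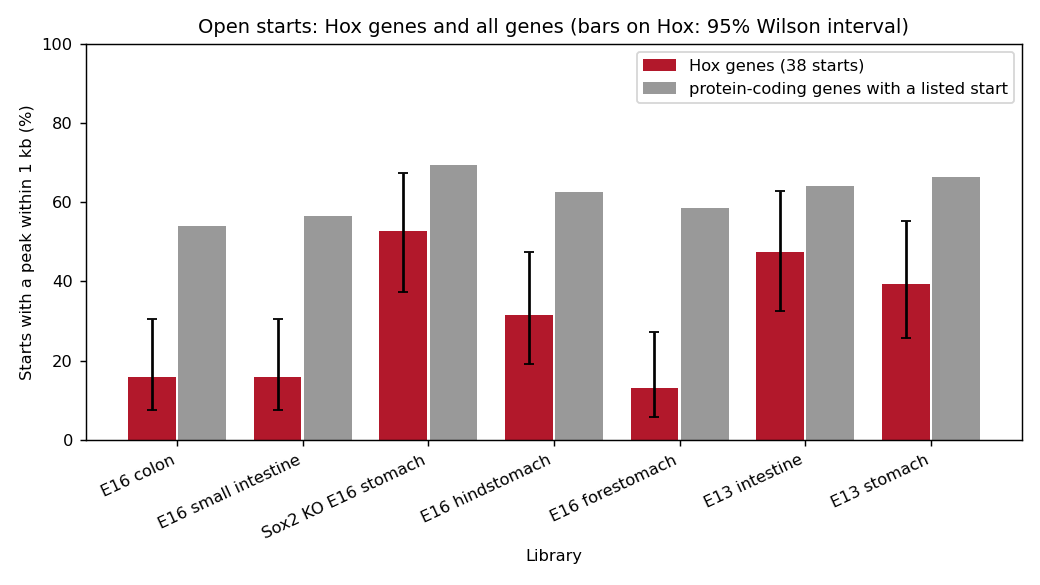
Share of starts with a peak within 1 kb (%, vertical axis) in each library, for the 38 Hox genes (red bars, with 95% Wilson intervals) and for 17274 protein-coding genes with a listed start (grey bars). The Hox bars run from 13.2% in forestomach to 52.6% in KO and stand below the grey bar in every library.

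Open starts differed among libraries for 29 of the 38 genes. Hoxd1 was open in all 7 libraries, and Hoxb9, which helps pattern the thorax, in 6 (all but forestomach). Hoxa4, Hoxa13 and Hoxd11 were open in 5. At the other end, 8 starts had no peak in any library: Hoxa3, Hoxa9, Hoxa11, Hoxb2, Hoxb6, Hoxb8, Hoxc6 and Hoxc8. For Hoxb8 this holds at its listed start only, which lies inside the gene body. A region 367 bp upstream of that body had peaks in KO, hindstomach and both E13 libraries. Another, 839 bp upstream, had peaks in colon, small intestine and hindstomach. Another 11 Hox starts were open in a single library. Of these, Hoxb3, Hoxb13, Hoxa7 and Hoxd4 were open in E13 intestine, and Hoxa2, Hoxc9 and Hoxd8 in KO. Hoxc11 and Hoxc12 were open in hindstomach, Hoxa6 in colon and Hoxd12 in E13 stomach. The Hoxa7 and Hoxb13 peaks, 62 and 66 bp wide, were narrower than any peak of the other lists. The Hoxc9 peak, 72 bp wide, was narrower than any in the wild-type E16 lists. The part of these unequal minimum widths in the start states was not tested.

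**Figure D2:**
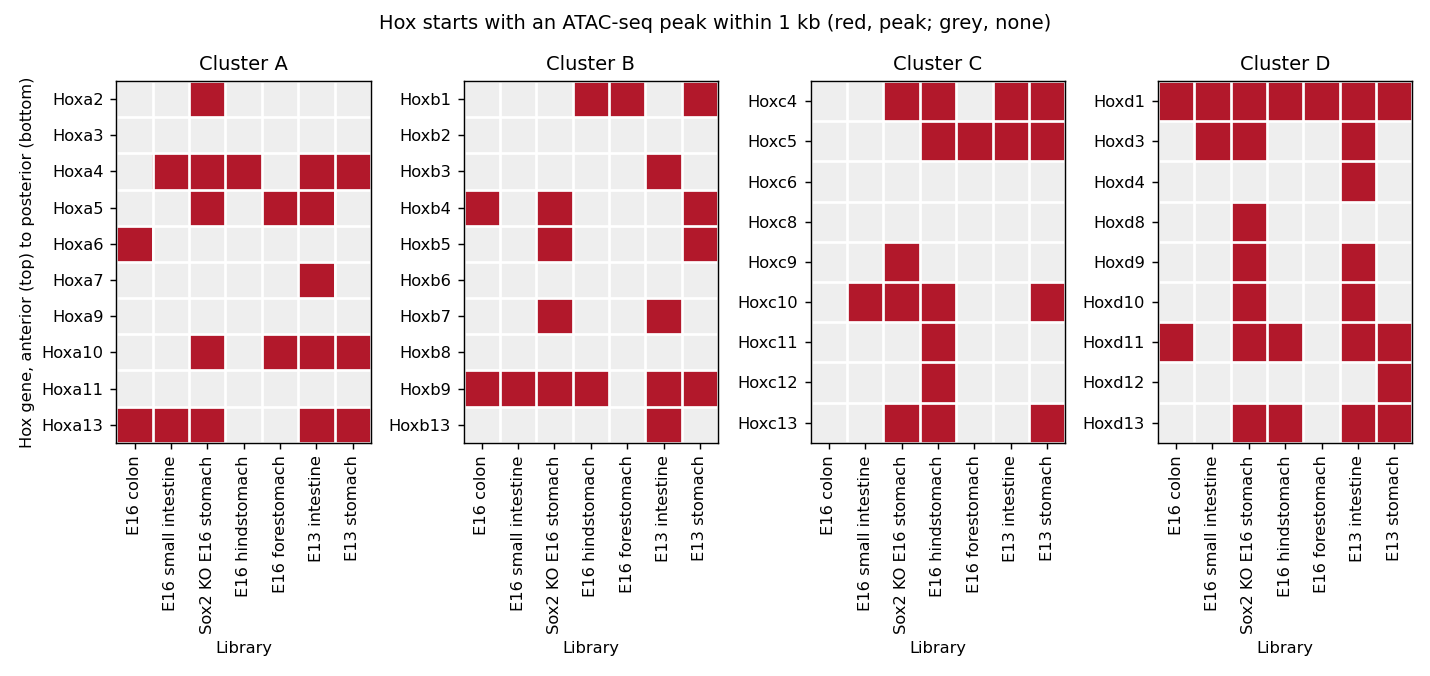
State of each of the 38 Hox starts (rows, from anterior to posterior within each cluster) in the 7 libraries (columns), red where a peak lay within 1 kb. Hoxd1 is red in all 7 columns, and the KO and E13 intestine columns of cluster D hold 7 red cells each.

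The peaks near Hox starts seldom lay on the start itself. The share over all genes was not computed, so this is not read as a trait of Hox genes. Hox starts that RefSeq does not list were taken from the gene body, and their place is less certain. Hoxd1, a group 1 gene, was the only Hox gene whose start base was under a peak in all libraries. Its peak was 276 bp wide in colon, 261 in small intestine, 505 in KO, 225 in hindstomach, 237 in forestomach, 229 in E13 intestine and 377 in E13 stomach. The peak ran from 22 bases before the start in colon, and from 175 bases before it in KO, so that 22 bases of the printed promoter were under a peak in every library. In the other genes the start base was under a peak in E13 intestine for Hoxa5, Hoxb3 and Hoxd13 and in hindstomach for Hoxd11. In each library, therefore, only 1 (colon, small intestine, KO, forestomach and E13 stomach), 2 (hindstomach) or 4 (E13 intestine) peaks spanned a Hox start. Start states near the edge of the window turn on little: Hoxb1, the hindbrain gene, was open in hindstomach, forestomach and E13 stomach from peaks that began 898, 836 and 971 bases past its start, while the same region had peaks beginning at 1057 bases in colon, 1002 in KO and 1062 in E13 intestine.

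Several genes of groups 3 to 5 had starts that differed between a stomach and an intestinal library. At Hoxc5, a cervical and thoracic gene, the peak began 290 bases past the start in hindstomach, 177 in forestomach, 295 in E13 intestine and 128 in E13 stomach, and colon, small intestine and KO had none. At Hoxc4, its anterior neighbour, the peak began 415 bases past the start in KO, 649 in hindstomach, 618 in E13 intestine and 473 in E13 stomach, and colon, small intestine and forestomach had none. Hindstomach and both E13 libraries thus had a peak at both starts, and both E16 intestinal libraries had one at neither. Hoxd3 is a gene of the upper neck vertebrae. It had peaks beginning 249 bases past its start in small intestine, 117 in KO and 102 in E13 intestine. Colon and the wild-type stomach libraries had none within 1 kb of that start. Hoxa4 had a peak upstream that ended 166 bases before the start in small intestine, 138 in KO, 173 in hindstomach and 257 in E13 stomach. In E13 intestine the only Hoxa4 peak lay inside the gene, from 626 bases past the start. Hoxa5 likewise differed in place: its peak crossed the start in E13 intestine, began 720 bases past it in forestomach, and in KO 2 peaks began 11 and 427 bases past it. At Hoxb5, KO and E13 stomach peaks began 324 and 323 bases before the start.

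Among the posterior genes, the Hoxc10 peak lay at nearly the same place in 4 libraries. Hoxc10 acts at the lumbar level, and the peak ended 103 bases before the start in small intestine, 118 in KO, 108 in hindstomach and 88 in E13 stomach. At the second start of Hoxa10 the peak began 238 bases past the start in KO, 267 in forestomach, 208 in E13 intestine and 238 in E13 stomach. Hoxd11, which patterns forelimb and kidney with Hoxa11, varied more in place. At the downstream Hoxd11 start the peak began 36 bases past the start in colon and 16 in KO and crossed it in hindstomach. The E13 peaks were upstream, ending 230 bases before the start in E13 intestine and 177 in E13 stomach, which gives the separate stretches of capitals in its promoter above. At Hoxd9 the KO peak began 167 bases past the start and the E13 intestine peak 577, so the start was open through different regions.

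Along the clusters, the open starts did not follow a simple order from anterior gut to posterior gut. In colon, the most posterior tissue, the most posterior open start was Hoxa13 in cluster A, Hoxb9 in cluster B and Hoxd11 in cluster D, and no start of cluster C was open. In small intestine these were Hoxa13, Hoxb9, Hoxc10 and Hoxd3. In KO they were Hoxa13, Hoxb9, Hoxc13 and Hoxd13, and in hindstomach Hoxa4, Hoxb9, Hoxc13 and Hoxd13. Forestomach, the most anterior tissue, ended at Hoxa10, Hoxb1, Hoxc5 and Hoxd1, with 1 of 16 starts of groups 9 to 13 open. E13 intestine reached Hoxa13, Hoxb13, Hoxc5 and Hoxd13, and E13 stomach Hoxa13, Hoxb9, Hoxc13 and Hoxd13. With a start window of 2 kb, the limit in cluster C moved to group 8 in colon and to group 11 in forestomach, and in cluster A to group 13 in hindstomach.

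Cut into 3 ranges of paralog number, the 11 anterior genes (groups 1 to 4) had 2 open starts in colon, 3 in small intestine, 6 in KO, 4 in hindstomach, 2 in forestomach, 6 in E13 intestine and 5 in E13 stomach. The 11 central genes (5 to 8) had 1, 0, 4, 1, 2, 4 and 2 in the same libraries. The 16 posterior genes (9 to 13) had 3, 3, 10, 7, 1, 8 and 8. The central genes were the least often open range in each library but forestomach, where the posterior share was lower. Central genes also had few regions, 21 of the 181, against 82 for the anterior and 78 for the posterior range. Assignment to the nearest gene body bears on this. Of the 181, 51 lay outside the clusters' spans, where only an end gene, never a central one, can be the nearest Hox gene. The long bodies of Hoxa3, Hoxb3 and Hoxd3 held or neighboured 10, 11 and 12 more. The counts were not corrected for the length of sequence near each gene.

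Regions gave a partly different order. The libraries held 50 Hox regions in colon, 32 in small intestine, 75 in KO, 45 in hindstomach, 34 in forestomach, 60 in E13 intestine and 50 in E13 stomach. As a share of the 181, this was 27.6% in colon (against 40.8% of all regions of the series), 17.7% in small intestine (against 28.9%), 41.4% in KO (against 31.8%), 24.9% in hindstomach (against 33.3%) and 18.8% in forestomach (against 26.1%). It was 33.1% in E13 intestine (against 22.9%) and 27.6% in E13 stomach (against 28.2%). The Hox share was thus above that of all regions in KO and E13 intestine. Cut to the widest peaks at equal length, KO had 54 Hox regions and E13 intestine, whose list was not shortened by this cut, 60. Posterior genes had 44.0% of the Hox regions in colon (31.2 to 57.7) and 50% in small intestine (33.6 to 66.4). They had 38.7% in KO (28.5 to 49.98), 40.0% in hindstomach (27.0 to 54.5), 29.4% in forestomach (16.8 to 46.2), 35.0% in E13 intestine (24.2 to 47.6) and 32.0% in E13 stomach (20.8 to 45.8). The order thus put intestinal tissues above stomach tissues at each stage, but all of these intervals overlap.

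**Figure D3:**
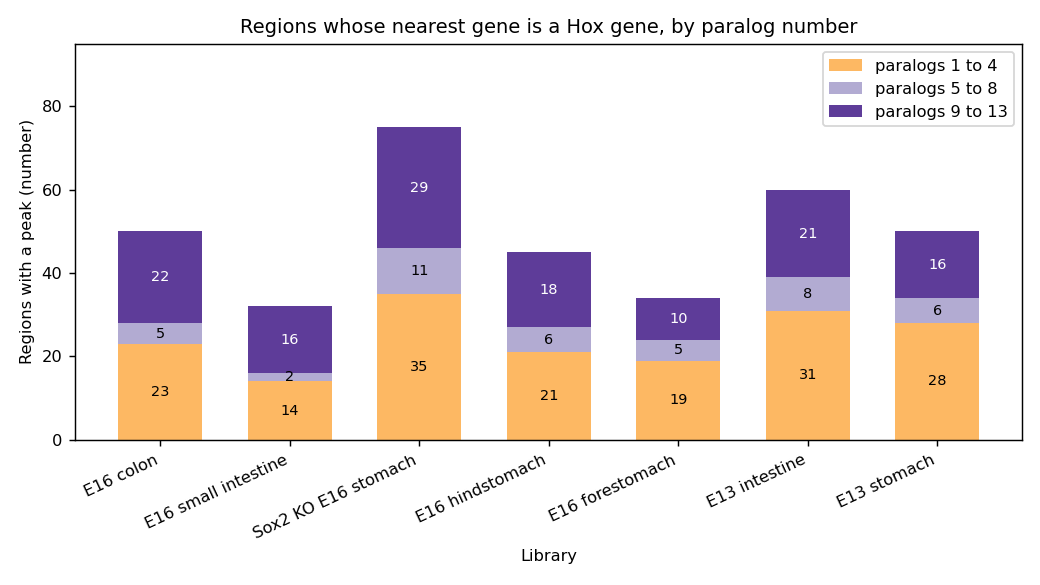
Number of Hox regions with a peak (vertical axis) in each library, stacked by the range of paralog numbers of the nearest gene (1 to 4, 5 to 8 and 9 to 13). With all peaks KO has the most at 75. With the widest peaks at equal list length KO has 54, against 60 in E13 intestine, whose list is not cut. The posterior range (dark) counts 29 in KO, 22 in colon and 10 in forestomach.

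In colon, the longest list, most Hox regions lay away from the gene starts, and so did nearly all regions of group 13 genes. These genes act in the tail end of the body: Hoxa13 and Hoxd13 in hindgut, limb and genital tract, Hoxb13 in tail and distal gut, and Hoxc13 in hair and nail. Regions nearest to a group 13 gene numbered 14 in colon, 7 in small intestine, 11 in KO, 6 in hindstomach, 4 in forestomach, 8 in E13 intestine and 9 in E13 stomach. Colon thus held 35.9% of the 39 group 13 regions, against 40.8% of all regions, and in each of the other 6 libraries the group 13 share was also the lower. In colon 13 of the 14 lay beyond 1 kb of the gene's own start. The same held for 6 of 7 in small intestine, 4 of 11 in KO, 3 of 6 in hindstomach, 4 of 4 in forestomach, 5 of 8 in E13 intestine and 4 of 9 in E13 stomach. Over all Hox genes, 43 of 50 regions lay that far away in colon, 26 of 32 in small intestine and 46 of 75 in KO. The counts were 33 of 45 in hindstomach, 29 of 34 in forestomach, 39 of 60 in E13 intestine and 32 of 50 in E13 stomach.

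Hoxb13 had 5 regions in colon, 3 in small intestine, 1 in KO, 1 in hindstomach, 3 in forestomach, 1 in E13 intestine and 1 in E13 stomach. None of the 5 colon regions reached the Hoxb13 start. They lay at 96187685 to 96187807, shared with small intestine, at 96202874 to 96202969 and 96216616 to 96216757 in colon alone, at 96212555 to 96212765 with small intestine and forestomach, and at 96231436 to 96231775 with all other wild-type E16 tissues. The single E13 intestine peak, at 96194241 to 96194307, ended 9 bases before the start. Hoxc13 had 6 regions in colon, all upstream of the gene at distances from 3255 to 96176 bp. It had 5 in KO, 4 of them within 1 kb of the start, and in E13 stomach 3 of 4 were. The peaks within the start window of Hoxc13 were in KO, hindstomach and E13 stomach. Forestomach and the intestinal libraries had none there.

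Hoxa13 had open starts in 5 libraries, though not at the same place. The region at 52260261 to 52260483, inside the gene, held the colon, KO and E13 stomach peaks, and those of small intestine and E13 intestine lay elsewhere. Hoxd13 likewise had its start peaks at 74668186 to 74668356 in E13 intestine and E13 stomach, at 74668383 to 74668563 in KO and at 74668644 to 74668733 and 74667354 to 74667443 in hindstomach. A region between Hoxd13 and Hoxd12 at 74673102 to 74673232 was found in colon, KO, hindstomach and E13 intestine.

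Of the group 9 genes, Hoxb9 had the most regions, 11, with 5 in colon, 6 in small intestine, 5 in KO, 6 in hindstomach, 2 in forestomach, 4 in E13 intestine and 2 in E13 stomach. Its most widely held region, at 96271659 to 96271957, was inside the gene and was present in small intestine, KO, hindstomach, E13 intestine and E13 stomach. Colon and KO instead had, or had in addition, a peak at 96271030 to 96271234, which ended 96 bases before the start. Hoxa9 had 2 regions, of which the one at 52221697 to 52222002 was found in 5 libraries, all but colon and small intestine. Hoxd9 had 1 region each in KO and E13 intestine, and Hoxc9, a gene of thoracic motor neurons, had 2 in KO and none elsewhere. These Hoxc9 regions were 72 and 71 bp wide, at or near the narrowest width in the KO list.

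The 3 Hox regions found in all 7 libraries were at the Hoxd1 start (74762805 to 74763310), within the long Hoxa3 body (52172530 to 52172893) and upstream of Hoxc8 (102987503 to 102987801). They made up 1.66% of the Hox regions, against 4.46% of all regions in the series. Regions of a single library numbered 105 (58.0%, against 55.3% of all regions). Of E13 intestine's 60 Hox regions 30 (50%) were in no other library, against 28.7% of all its regions. For KO this was 27 of 75 (36%, against 28.0%), for colon 20 of 50 (40.0%, against 41.5%) and for E13 stomach 6 of 50 (12.0%, against 26.9%). The E13 intestine and KO lists also held the narrowest peaks, down to 62 and 71 bp, and the part of width was not tested. Of the 181 regions, 89 overlapped the body of their gene and 51 lay outside the span between the first and last of the Hox genes of a cluster. Regions within 1 kb of the start of their own gene numbered 7 in colon, 6 in small intestine, 29 in KO, 12 in hindstomach, 5 in forestomach, 21 in E13 intestine and 18 in E13 stomach. Those further away numbered 43, 26, 46, 33, 29, 39 and 32 in the same libraries, and colon then came second to KO.

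**Figure D4:**
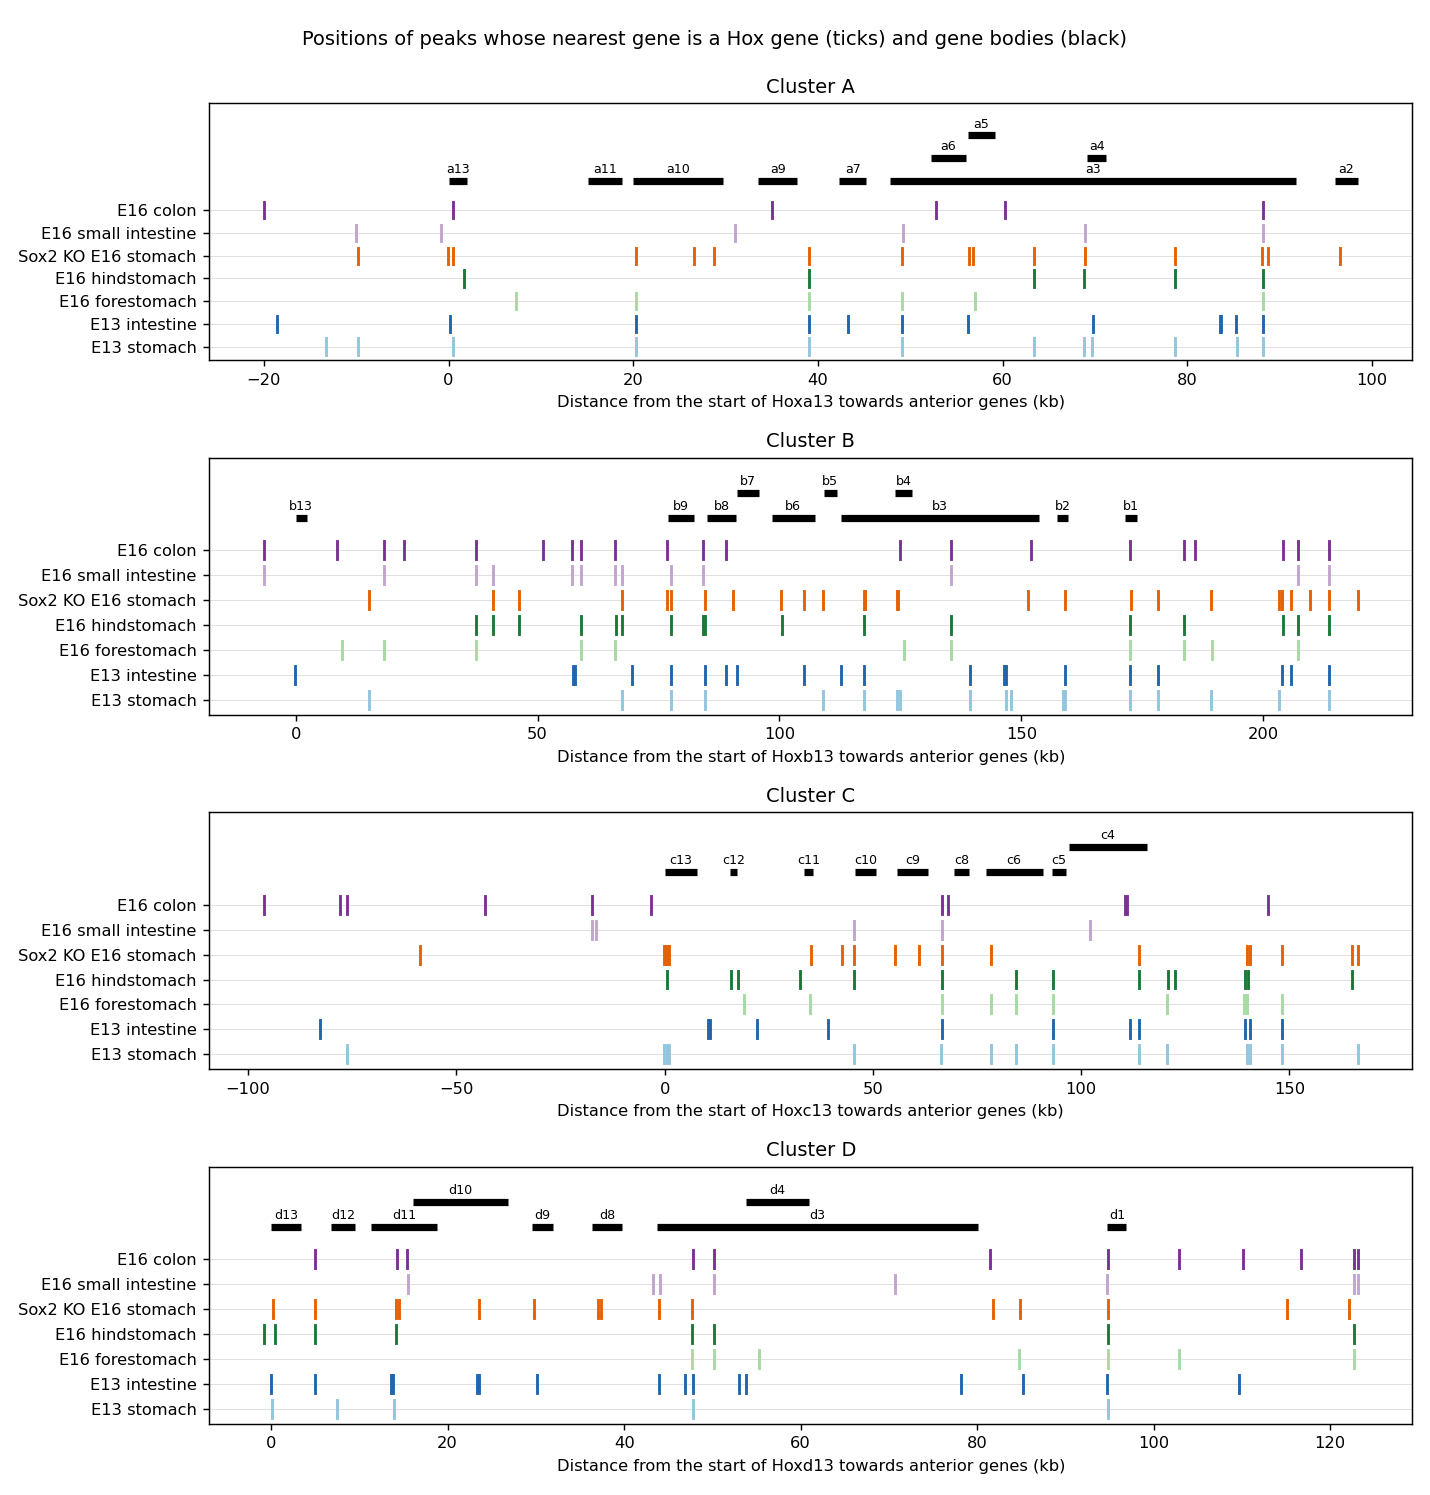
Peaks of each library (coloured ticks at the peak centre) whose nearest gene is 1 of the 38 Hox genes, by distance from the start of the group 13 gene towards the anterior genes (kb, horizontal axis), with gene bodies in black above. The colon row of cluster C has 6 ticks left of the gene Hoxc13, and the KO and E13 intestine rows of cluster D hold 15 and 16 ticks, against 5 in E13 stomach.

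KO stomach was set against hindstomach, the glandular stomach of the same stage. KO had more open Hox starts and more Hox regions than hindstomach. The stomach part and the isolation of the KO library are not named in the sources used here. Genotype, stomach part and isolation therefore cannot be told apart, here or in the comparisons of KO with forestomach and E13 stomach. The 12 starts open in KO and closed in hindstomach were those of Hoxa2, Hoxa5, Hoxa10, Hoxa13, Hoxb4, Hoxb5, Hoxb7, Hoxc9, Hoxd3, Hoxd8, Hoxd9 and Hoxd10, or 31.6% of the 38, against 8.24% of all starts. Hoxa5 patterns lung and stomach mesenchyme, Hoxa10 the uterus, and Hoxd10 the limb and its motor neurons. The 4 starts open in hindstomach and closed in KO were those of Hoxb1, Hoxc5, Hoxc11 and Hoxc12, against 1.55% of all starts. Both libraries had open starts at Hoxa4, Hoxb9, Hoxc4, Hoxc10, Hoxc13, Hoxd1, Hoxd11 and Hoxd13.

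Of the Hox regions in only 1 of the pair, 52 were in KO and 22 in hindstomach (70.3% in KO, 59.1 to 79.5), with 23 shared, whereas 47.9% of all unshared regions were in KO. Cluster A had 11 regions in KO only and 1 in hindstomach only, cluster D 11 and 4, cluster B 17 and 8, and cluster C 13 and 9. Of the 12 KO starts, 7 were open in E13 intestine, 4 in E13 stomach, and 3 (Hoxa2, Hoxc9 and Hoxd8) in neither. Over all 38 Hox starts, 18 were open in E13 intestine and 15 in E13 stomach. The matching shares for all genes with starts open in KO and closed in hindstomach were not computed. The KO library also had the most open mesenchymal marker starts, 6 of 8 (Barx1, Col1a1, Foxf1, Tbx18, Twist1 and Twist2), against 2 in hindstomach and 1 in forestomach. In KO 69.4% of all listed starts, and 68.6% of all genes read at either end, were open, so 6 of 8 is near the share of all genes. In the remaining libraries these numbered 5 in E13 intestine, 4 in E13 stomach, 3 in small intestine and 2 in colon, with Col3a1 closed in all 7. Of 5 neural markers KO had 4 open, against 3 in hindstomach, with Sox10 open in KO alone of the 7 libraries, and of 3 blood markers KO had 1 open, Cd52, which was closed in the other 6. The part of other cell types and of depth in the KO counts was not tested, and in such bulk samples fewer cells with an open site and less opening per cell cannot be told apart.

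Against forestomach, 17 Hox starts were open in KO only and 2 in forestomach only, Hoxb1 and Hoxc5, against 12.0% and 1.16% of all starts. The 17 held 9 of the 16 posterior genes, among them Hoxa13, Hoxc13 and Hoxd13. Unshared Hox regions numbered 62 in KO and 21 in forestomach (74.7% in KO, 64.4 to 82.8, against 58.5% of all regions), with 13 shared. Cluster B had 24 in KO only, 9 in forestomach only and 2 shared.

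Against E13 stomach, 8 Hox starts were open in KO only (Hoxa2, Hoxa5, Hoxb7, Hoxc9, Hoxd3, Hoxd8, Hoxd9 and Hoxd10) and 3 in E13 stomach only (Hoxb1, Hoxc5 and Hoxd12), against 4.30% and 1.25% of all starts. The 2 libraries had 12 open Hox starts in common, and 35 Hox regions, of 90 in either, were shared, a Jaccard index of 0.389 (shared over either), against 0.399 over all regions. This was the highest index of the 21 pairs of libraries for Hox regions. Unshared regions numbered 40 in KO and 15 in E13 stomach (72.7% in KO, 59.8 to 82.7, against 57.1% of all regions). In cluster D the counts were 13 and 3, with 2 shared. The 3 comparisons of KO use the same KO library, and in this one the stage differs too.

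A small set of regions was found in the wild-type E16 tissues but not in KO. This set was chosen after the values were seen. Hox regions present in colon, small intestine, hindstomach and forestomach alike numbered 10, and 7 of them (70.0%, 39.7 to 89.2) had no peak in KO or in either E13 library. Over all regions of the 4 tissues this share was 35.5%. The 7 regions lay away from starts: at 96231436 to 96231775 between Hoxb13 and Hoxb9, at 96253209 to 96253375 and 96260353 to 96260546 upstream of Hoxb9, at 96329668 to 96329827 in Hoxb3, at 96401505 to 96401678 beyond Hoxb1, at 74718362 to 74718527 in Hoxd3 and at 74790689 to 74791076 beyond Hoxd1. The other 3 were those of all 7 libraries.

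E13 intestine and E13 stomach, the 2 organs of the earlier stage, differed most in cluster D, where intestine had 16 regions and stomach 5. There 12 regions were in intestine only, 1 in stomach only and 4 in both. Starts open in intestine only were those of Hoxa5, Hoxa7, Hoxb3, Hoxb7, Hoxb13, Hoxd3, Hoxd4, Hoxd9 and Hoxd10, which is 9 of 38, against 2.29% of all starts. Starts open in stomach only were those of Hoxb1, Hoxb4, Hoxb5, Hoxc10, Hoxc13 and Hoxd12, 6 of 38, against 4.60% of all starts. The 9 starts open in both were those of Hoxa4, Hoxa10, Hoxa13, Hoxb9, Hoxc4, Hoxc5, Hoxd1, Hoxd11 and Hoxd13. Over the 4 clusters 38 regions were in intestine only and 28 in stomach only (57.6% in intestine, 45.6 to 68.8), against 39.9% of all unshared regions. The peaks at the Hoxd10 start in E13 intestine were 62 and 72 bp wide, and the median start peak was 79 bp in E13 intestine and 201 bp in E13 stomach.

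At E16, small intestine had fewer open Hox starts than hindstomach. Open in small intestine only were Hoxa13 and Hoxd3 (2 of 38, against 2.74% of all starts), and in hindstomach only Hoxb1, Hoxc4, Hoxc5, Hoxc11, Hoxc12, Hoxc13, Hoxd11 and Hoxd13 (8 of 38, against 8.96%). Of the 8, 5 were genes of cluster C, and cluster C had 3 regions in small intestine only, 12 in hindstomach only and 2 shared. In total 15 regions were in small intestine only and 28 in hindstomach only (34.9% in small intestine, 22.4 to 49.8, against 43.0% of all regions). When each list was cut to the widest peaks at equal length, the order turned, to 16 and 13 regions.

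Colon and small intestine, the distal and the proximal absorptive gut, had 3 open Hox starts each that the other lacked. Open in colon only were Hoxa6, Hoxb4 and Hoxd11, against 5.24% of all starts, and in small intestine only Hoxa4, Hoxc10 and Hoxd3, against 7.77%. Both had Hoxa13, Hoxb9 and Hoxd1. Regions in colon only numbered 32 and in small intestine only 14 (69.6% in colon, 55.2 to 80.9), close to the 67.2% over all regions, and 18 were shared. Cluster B had 11 and 3, cluster C 9 and 3, cluster D 7 and 3, and cluster A 5 and 5. With the widest peaks at equal list length there were 15 in each.

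Hindstomach and forestomach, the future glandular and squamous stomach, differed by 9 Hox starts open in hindstomach only and 2 in forestomach only, against 6.12% and 1.95% of all starts. The 9 were Hoxa4, Hoxb9, Hoxc4, Hoxc10, Hoxc11, Hoxc12, Hoxc13, Hoxd11 and Hoxd13, so 7 were posterior genes, and the 2 were Hoxa5 and Hoxa10. Regions in hindstomach only numbered 27 and in forestomach only 16 (62.8% in hindstomach, 47.9 to 75.6, against 66.0% of all regions). The posterior genes had 14 in hindstomach only and 6 in forestomach only, and the anterior genes 10 and 8. With the widest peaks at equal list length the order turned, to 12 in hindstomach only and 16 in forestomach only, and open starts were then 6 and 0.

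Fewer Hox starts were open at E16 than at E13 in both organs, and the share over all genes was lower at E16 too. It was 56.5% in small intestine against 64.0% in E13 intestine, and 62.7% in hindstomach against 66.3% in E13 stomach. In intestine, 1 start, that of Hoxc10, was open at E16 only, against 3.36% of all starts. Those open at E13 only were 13 (against 10.9%): Hoxa5, Hoxa7, Hoxa10, Hoxb3, Hoxb7, Hoxb13, Hoxc4, Hoxc5, Hoxd4, Hoxd9, Hoxd10, Hoxd11 and Hoxd13. Unshared regions numbered 24 at E16 and 52 at E13 (31.6% at E16, 22.2 to 42.7), whereas 58.7% of all unshared regions were at E16. The anterior genes had 9 at E16 only and 26 at E13 only, the central genes 1 and 7 and the posterior genes 14 and 19. The library at E13 came from sorted cells of the intestine and that at E16 from EDTA-released proximal small intestine, so stage, isolation and gut segment cannot be told apart.

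In stomach, Hoxc11 and Hoxc12 were open in E16 hindstomach only (2 of 38, against 2.86% of all starts), and Hoxa10, Hoxa13, Hoxb4, Hoxb5 and Hoxd12 in E13 stomach only (5 of 38, against 6.50%), with 10 open in both. Regions numbered 25 in hindstomach only and 30 in E13 stomach only (45.5% in hindstomach, 33.0 to 58.5, against 57.1% of all regions). Cluster A had 1 in hindstomach only and 7 in E13 stomach only. With the widest peaks at equal list length the counts were 10 and 28 (26.3%). The E13 cells were sorted, and hindstomach, a part of the stomach, was freed with EDTA. Stage, isolation and stomach part therefore cannot be told apart.

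**Figure D5:**
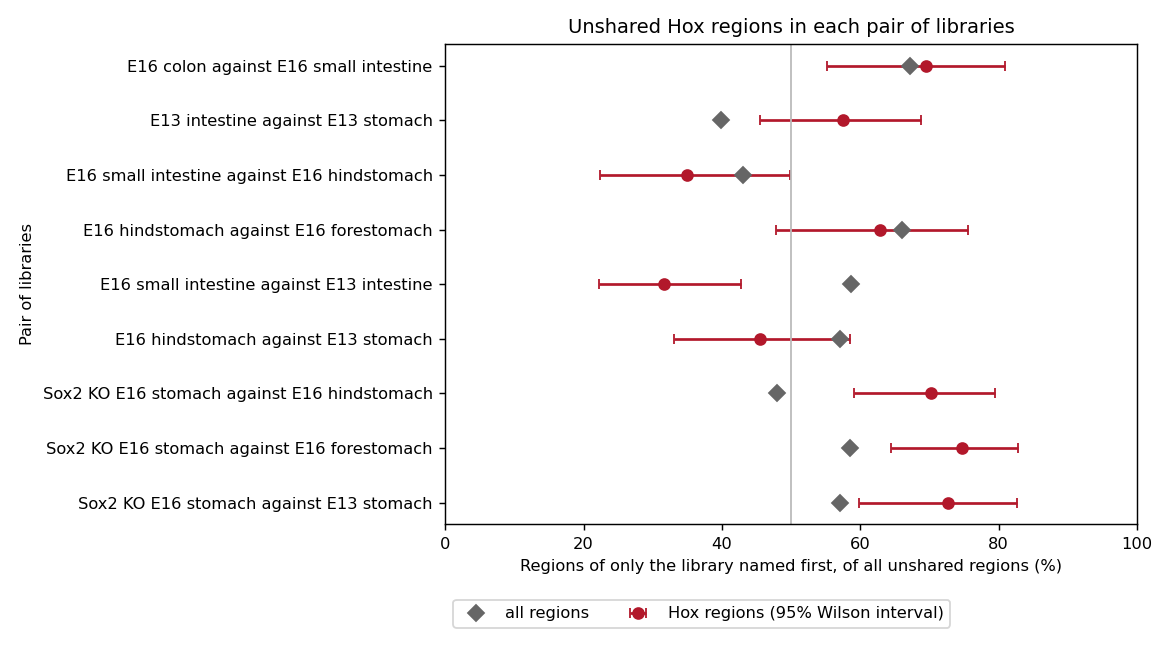
For 9 pairs of libraries, the share of unshared regions that belong to the library named first (%, horizontal axis), for Hox regions (red points with 95% Wilson intervals) and for all regions of the series (grey diamonds). The red interval lies above the diamond for each pair with KO and for the E13 pair, and below it for intestine at E16 against E13.

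Genes that control or partner the Hox genes were open more often than the Hox genes themselves. Of a list of 29, 16 had an open start in colon, 18 in small intestine and 25 in KO. The counts were 22 in hindstomach, 21 in forestomach, 21 in E13 intestine and 21 in E13 stomach. The colon count was near the share of all genes given below, and the other counts were above it. Whether these genes differ from all genes was not tested. Among those open in all 7 were the homeodomain partners Pbx3, Pbx4, Meis1 and Pknox1, the Polycomb genes Ezh2, Eed and Suz12, the insulator gene Ctcf, the retinoic acid enzyme Aldh1a2 and the receptor Rarg. Cdx1, an intestinal regulator of Hox genes, was open in small intestine and KO only, and Cdx4, which acts in the early embryo, in E13 intestine only. Evx1 and Evx2, which neighbour clusters A and D, had no peak near their starts in any library. Of the other marker lists, intestinal markers were open in 5 of 5 cases in KO and small intestine, 4 in colon and E13 intestine, 3 in hindstomach and E13 stomach and 1 in forestomach. Stomach markers were open in 4 of 5 in KO, hindstomach and forestomach, 3 in E13 stomach and 1 in each intestinal library. Squamous markers were open in 2 of 4 in KO and E13 stomach, 0 in small intestine and 1 in the other 4 libraries. Neural markers were open in 1 of 5 in colon, 4 in KO and 3 in the other 5 libraries, and of 3 endothelial markers Kdr alone was open, in all libraries but colon and small intestine. Trp63, Cdh5 and Ptprc were among the markers closed in all libraries. Genes of these lists without a listed start were read at either gene end; by that rule 54.6% of 21631 genes were open in colon, 55.7% in small intestine, 68.6% in KO, 62.2% in hindstomach, 57.6% in forestomach, 62.4% in E13 intestine and 65.2% in E13 stomach.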

How the data were processed

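Each of the 7 deposited files lists peak positions in 3 columns (chromosome, start, end), so the unit of the deposited values is other than a signal: no height, score or count, and no normalization. Tools in the submitters' processing notes are cutadapt, Bowtie2 and MACS2, and the builds are GRCm38 and mm10; the sources used here give no versions, thresholds or pooling. Peaks on 19 autosomes and X were kept and merged where they overlapped by at least 1 bp. A region went to the nearest protein-coding gene body of GRCm38.p6 RefSeq, and to the shortest body where several overlapped, so a peak just upstream of Hoxa4 or Hoxd4 can belong to the long Hoxa3 or Hoxd3. Starts came from the RefSeq promoter table for 22 of the Hox genes; for the other 16 the 5′ end of the gene body was used, on the strand shared by the listed genes of the cluster (in cluster C, Hoxc4 alone). Marker and partner genes without a listed start were read at either gene end. For all genes, 17274 with a listed start form the background. The Hox genes, lists and rules were chosen with earlier results of these data known. Hox genes described singly are those whose start differed between libraries, the most posterior open gene of each cluster and groups 9 and 13. Merging and calling were tested on simulated data. Python 3.11.15, numpy 2.4.6, pandas 2.3.3, scipy 1.17.1 and matplotlib 3.10.9 were used. Some genes of the partner and marker lists are counted but not reported by name here.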

Additional observations from a re-analysis of the deposited data

Results flagged for a closer look

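The intestine and stomach libraries differed in opposite directions at the 2 stages, with 1 library each, and the difference between stages was not tested. Open Hox starts were 3 more in intestine than in stomach at E13 (18 and 15), while at E16 the number in small intestine minus that in hindstomach was -6 (6 and 12). In cluster B, intestine had 2 more Hox regions than stomach at E13 (20 and 18), and the difference between small intestine and hindstomach at E16 was -4 (13 and 17). Lists of unequal length and isolation by different methods move with these values, and their part was not tested.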

How the results depend on the processing

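No paired analysis was possible because each group has 1 library. Of the alternatives, merging across gaps of a nucleosome's length, assigning regions to the nearest gene start, single peaks, a window of 20 kb around the clusters and, added after the data were seen, either gene end in place of the start kept each count of Hox regions or open starts within 1.5 times and each share within its interval. When each list was cut to its 81179 widest peaks, Hox regions numbered 29 in colon and 26 in hindstomach (50 and 45 with all peaks). The share of unshared Hox regions then moved to 50% for colon against small intestine and 26.3% for hindstomach against E13 stomach, and turned to 55.2% for small intestine against hindstomach and 42.9% for hindstomach against forestomach. Under the same setting E13 intestine, not KO, had the most Hox regions (54 in KO, 60 in E13 intestine) and open Hox starts (17 in KO, 18 in E13 intestine). The E13 intestine list holds 81179 peaks and was not cut, so this setting cannot rank it against KO. Open Hox starts in forestomach were 3 with the widest peaks and 3 with a start window of 500 bp; with 2 kb they were 10 in forestomach and 11 in colon. The most posterior open start moved, with the 2 kb window, to group 8 in cluster C and 12 in cluster D of colon, 11 in cluster D of small intestine, 13 in cluster A of hindstomach, and 4 in cluster B, 11 in cluster C and 4 in cluster D of forestomach. With 500 bp it was group 4 in cluster A of small intestine and 12 in cluster C of hindstomach, and cluster B of forestomach had 0 open starts. With the widest peaks it was group 11 in cluster D of hindstomach, and cluster A of forestomach had 0. The starts open in KO and closed in hindstomach numbered 10 to 14 over these alternatives. Of the 18 counts of starts open in only 1 library of a pair, which were compared after the data were seen, 9 moved by more than 1.5 times with 500 bp, 4 with 2 kb, 4 with the widest peaks and 1 with either gene end. The cause of these moves was not tested. Depth is unknown, so the smallest difference that these lists could show cannot be given.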

Other observations

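Pairs of libraries not set against each other above shared from 9 to 23 Hox regions. E16 colon and E16 hindstomach had 18 in common of 77 in either (Jaccard index 0.234, against 0.275 over all regions), E16 small intestine and E16 forestomach 12 of 54 (0.222, against 0.308), and E16 colon and E16 forestomach 15 of 69 (0.217, against 0.251). E16 forestomach and E13 stomach also had 15 of 69 in common, and the other 8 such pairs had a lower index. E16 colon and KO stomach had 10 in common of 115 in either (Jaccard index 0.0870, against 0.120 over all regions), E16 colon and E13 intestine 9 of 101 (0.0891, against 0.149), and E16 small intestine and KO stomach 11 of 96 (0.115, against 0.171). KO stomach and E13 intestine shared 23 of 112 (0.205, against 0.297), although 13 of the 25 Hox starts open in either were open in both. The covered length of Hox peaks was 7139 bp in colon, 4422 in small intestine, 11251 in KO, 6343 in hindstomach, 6350 in forestomach, 6346 in E13 intestine and 8465 in E13 stomach.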
